A study of Mus musculus with 26 samples.

Results

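The genes described here encode the proteins of the cytosolic ribosome. They were chosen by symbol, as mouse genes named Rpl or Rps with a number, together with Rplp0, Rplp1, Rplp2 and Rpsa, leaving out loci named as pseudogenes. Of 52962 genes in the count table, 89 matched, and 80 of these passed the expression filter of more than 0.5 CPM (counts scaled to a common library total) in at least 4 of 26 libraries. These 80 genes, 48 of the large (60S) and 32 of the small (40S) subunit, are among 15402 genes tested. The libraries come from immortalised brown preadipocytes of newborn IR-lox/IGF1R-lox mice, in which adenoviral GFP-Cre removed the endogenous insulin and IGF1 receptors, so all groups carry SV40 T-antigen and both deletions. The double-knockout line (DKO) received empty retroviral vector, and the other lines received FLAG-tagged human insulin receptor, B isoform, as full-length receptor (IR), as the kinase-dead K1030R mutant, as ∆CT, which lacks the C-terminal tail but keeps the kinase domain, or as JMO, which keeps the juxtamembrane stretch and lacks both the kinase domain and the tail. Each line was serum-starved for 6 h and sequenced without insulin (basal, 3 dishes a line), and IR, K1030R, ∆CT and JMO also after 100 nM insulin for 15 min, with 3 dishes each apart from ∆CT, which has 2. Each receptor form was studied in 1 selected population, so the replicates are dishes of 1 line, p-values measure the spread between dishes, and a receptor cannot be told apart from the line that carries it.

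A cytosolic ribosome holds a single copy of most of these proteins, and cells make them in matched amounts. The mRNAs of ribosomal proteins share a tract of pyrimidines at the 5′ end (the TOP motif), through which mTORC1 signalling and the RNA-binding protein Larp1 control their translation. Insulin is a classical stimulus of that pathway in adipose cells. The control acts mainly on translation and mRNA stability, and the libraries measure mRNA abundance only.

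Library totals ranged from 17228982 to 24694828 counts. Of the brown preadipocyte markers, Pdgfra was at 158.1 to 286.9 CPM, with line medians that were highest in IR (272.6), near each other in ∆CT and JMO (231.6 and 226) and lowest in K1030R and DKO (167 and 165.4), and Pparg at 2.57 to 6.34 CPM, lowest in IR (median 2.81), whereas Ebf2 and Prdm16, which mark the brown lineage, were below 0.5 CPM in every library. The mature adipocyte genes Ucp1, Adipoq, Cidea and Lep were at or near 0, as were Myod1, Myf5 and Myog of myoblasts, Cdh5 of endothelium and Adgre1 of macrophages, whereas Des of muscle was at 1.78 to 4.98, Pecam1 at 6.8 to 18.2 and Cd68 at 1.51 to 3.65 CPM. The preadipocyte surface markers Ly6a and Cd34 moved with the lines: the median of Ly6a was 43.2 CPM in DKO, 11 in JMO and 2.51 to 3.83 in IR, K1030R and ∆CT, and that of Cd34 was 3.40 in DKO, 4.8 in JMO and 10.5 to 14.6 in the other lines. Medians of Cebpb (16.8 CPM in DKO, 15 in JMO and 10.4 to 10.6 in the others) and Des (3.72, 4.58 and 2 to 2.63) were likewise lower in IR, K1030R and ∆CT. Their part in the results was not tested. The level of Gm42418, a locus that overlaps the ribosomal RNA unit, ranged from 14580 to 57500 CPM between libraries, highest in an IR basal dish. At baseline it was 24790 to 32840 CPM in DKO and 28170 to 36360 in K1030R. All basal dishes of IR (40160 to 57500), ∆CT (40860 to 46420) and JMO (44740 to 48730) lay above these. Its part in the results was tested only by adding it as a covariate. Bulk RNA cannot separate fewer cells of a kind from less RNA per cell.

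The 80 genes together held 2.79% ± 0.0703 (SD, n = 3) of counts in DKO, 2.82% ± 0.0922 (SD, n = 3) in IR, 2.93% ± 0.0122 (SD, n = 3) in K1030R, 3.03% ± 0.0768 (SD, n = 3) in ∆CT and 2.74% ± 0.0535 (SD, n = 3) in JMO at baseline. After insulin the share was 2.74% ± 0.0694 (SD, n = 3) in IR, 2.97% ± 0.0374 (SD, n = 3) in K1030R, 2.92% ± 0.152 (SD, n = 2) in ∆CT and 2.77% ± 0.0870 (SD, n = 3) in JMO. The 3 ∆CT basal dishes (2.95% to 3.10%) lay above all 6 DKO and JMO basal dishes (2.67% to 2.85%), while the IR dishes (2.72% to 2.91%) overlapped them. The genes moved together. In each library, the median over genes of the log2 level minus the gene's own mean gave nearly the same value for both subunits (Pearson's r = 0.97 over 26 libraries, which share depth and scaling, given as a description). A gene's own profile followed the median of the other members with a median r of 0.82, and 73 of the 80 had an r above 0.5, with the lowest r, 0.27, for Rpl22l1.

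**Figure D1:**
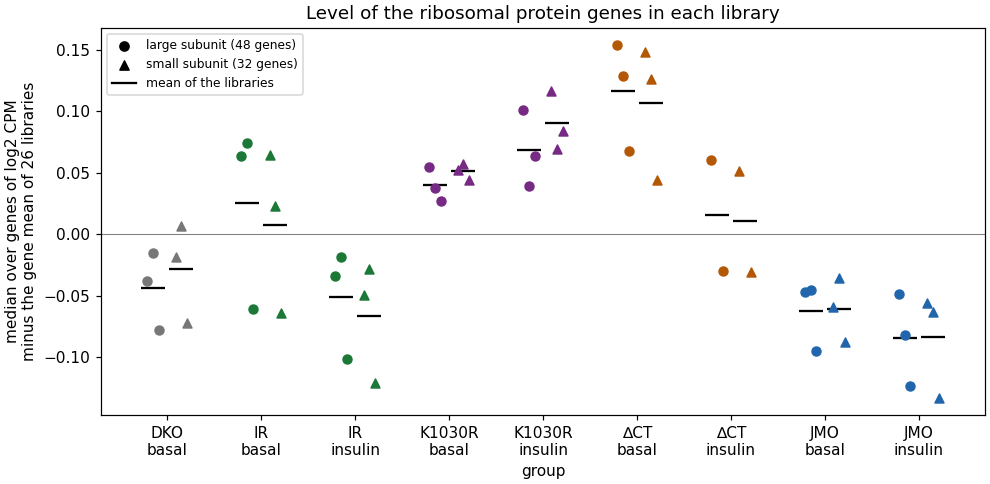
Level of the ribosomal protein genes in each of 26 libraries, as the median over genes of log2 CPM minus the gene's mean over all libraries (y axis), by group (x axis). Circles are the 48 large and triangles the 32 small subunit genes, and bars are means of the libraries. ∆CT basal and K1030R dishes sit above 0, all DKO and JMO dishes at or below about 0, and IR basal dishes on both sides.

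This set level ran from -0.13 in a JMO insulin dish to 0.15 in a ∆CT basal dish, and the pooled SD of dishes within a group was 0.043. The dishes numbered 3 were the lowest of their group in 7 of 8 groups with 3 dishes, by 0.038 below the group mean on average, although the labels do not say that a number marks a day or batch. In the IR basal dish numbered 3 the set level was -0.062, and the other two IR basal dishes were at 0.064 and 0.037. Mitochondrially encoded transcripts took 3.72% of counts in that dish and 3.09% and 3.14% in the other two. Their part in the difference was not tested.

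Against DKO at baseline, a group that all 4 comparisons share, ribosomal protein genes were shifted upward in the lines with ∆CT and K1030R receptors, and in IR by an amount that depended on 1 dish (adjusted p below 0.05, edgeR quasi-likelihood test with Benjamini-Hochberg adjustment over all 15402 genes). In ∆CT, 52 of 80 rose and 0 fell, where 23.4% of all genes rose and 22.9% fell. In K1030R, 27 rose and 1 fell, beside 21.2% and 20.4% of all genes. In IR, 20 rose (25% of the members, about the 25.6% of all genes) and 3 fell, beside 24.1% of all genes. In JMO, 7 rose and 11 fell, beside 16.8% and 17.4%. The median log2 fold change over the 80 was 0.15 in ∆CT (1.11-fold), 0.083 in K1030R, 0.046 in IR and -0.025 in JMO, while the median over all genes tested lay between 0.0074 and 0.014. The IR and JMO medians are of the size of the dish-to-dish SD of the set level (0.043).

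These directions held under RLE scaling, library totals and TMM factors computed without the members, but with library totals the IR median was 0.0039 and 12 members rose and 9 fell (all genes 49.2% called). Under RLE scaling 16 rose and 6 fell in IR (all genes 49.7% called), and 7 rose and 18 fell in JMO (34.6%). The JMO calls also grew to 8 higher and 20 lower with a block for the replicate number (all genes 35.1% called), 9 and 23 in a fit of only those groups (36.3%) and 9 and 19 without a filter (16%), and were 4 and 7 with the Gm42418 covariate (27.4%). With library totals 21 rose and 4 fell in K1030R (all genes 40.6% called). Without the third IR basal dish, the IR median was 0.093 and 35 members were called in place of 23, and without the first DKO dish 11 in place of 18 in JMO. These counts stand without the share of all genes called in the same refits.

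**Figure D2:**
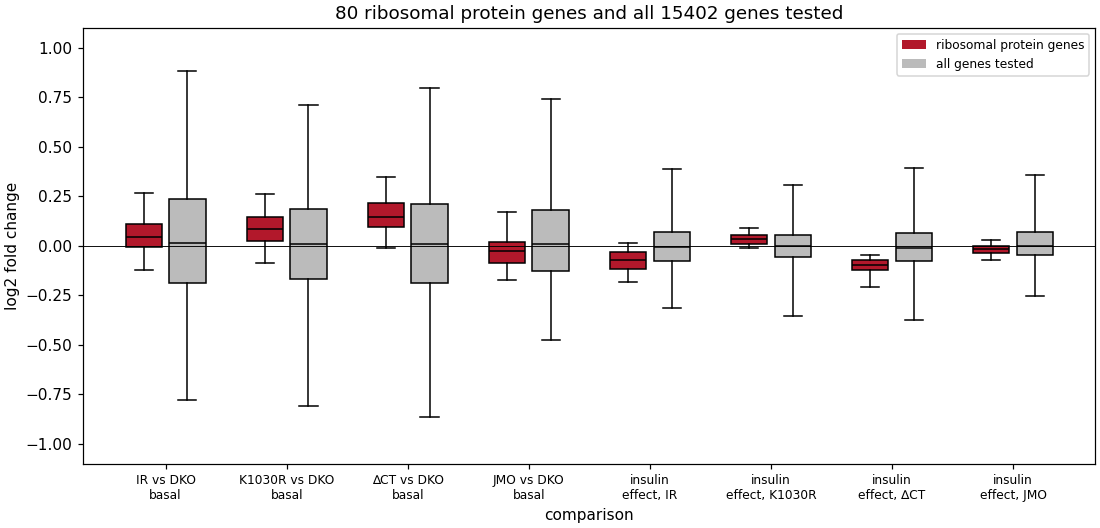
Log2 fold changes (y axis) of the 80 ribosomal protein genes (red) and of all 15402 genes tested (grey) in 8 comparisons (x axis). Boxes span the quartiles, lines mark medians and whiskers the 5th and 95th percentiles. The red boxes are narrow and lie above 0 for K1030R and ∆CT against DKO (medians 0.083 and 0.15), and below 0 for insulin in IR and ∆CT.

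All these differences were small. By a test for more than a 1.5-fold change (glmTreat), 0 of the 80 were called in any comparison, and 0 had even an unadjusted p below 0.05. Of all genes, that test called 6.88% in IR, 5.29% in K1030R and 6.3% in ∆CT, and 2.11% in JMO against DKO. It called 1.04%, 0.708% and 4.59% in K1030R, ∆CT and JMO against IR. For insulin it called 0.221% in IR, 0% in K1030R and 0.214% in ∆CT, and 0.039% in JMO. In the comparison of lines with and without an intracellular kinase domain, given next, it called 5.69%.

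IR, K1030R and ∆CT keep the intracellular kinase domain, intact or mutated, and DKO and JMO lack it. Between these classes, 62 of 80 genes were higher in the former and 1 (Rps15) lower at baseline, beside 26.7% of all genes higher and 25.6% lower. The 62 comprised 41 of 48 large subunit genes, with a median log2 difference of 0.12 over the 48, and 21 of 32 small subunit genes, with a median of 0.10 over the 32. For 11 members all 9 dishes with the domain lay above all 6 without it, among them Rpl7, Rpl7a, Rpl10, Rpl13a, Rpl15, Rpl22, Rps4x, Rps9, Rps21 and Rpsa, beside 7.43% of all genes, and 0 members lay wholly below, beside 7.8% of all genes. The median over the 80 was 0.107, and stayed above 0 under RLE scaling (0.102), library totals (0.0739, with 39 higher and 3 lower, beside 51.8% of all genes called in either direction) and factors without the members (0.109), being about 0 only where the members themselves set the scale. Against DKO alone 41 were higher and 2 lower, against JMO alone 51 and 0, and 30 were higher against both. Of all genes, 51.2% were called in either direction against DKO alone, near the share of the members (43 of 80), and 43.8% against JMO alone. In the insulin libraries, 41 were higher against JMO and 0 lower, beside 41.8% of all genes called in either direction. All 41 were among the 51 of the basal libraries. The insulin dishes were not in the basal contrast, but they come from the same cell populations and are not an independent test of the receptor forms. An F test for any difference among the 5 basal lines called 64 of 80, 42 large and 22 small, beside 65.8% of all genes.

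**Figure D3:**
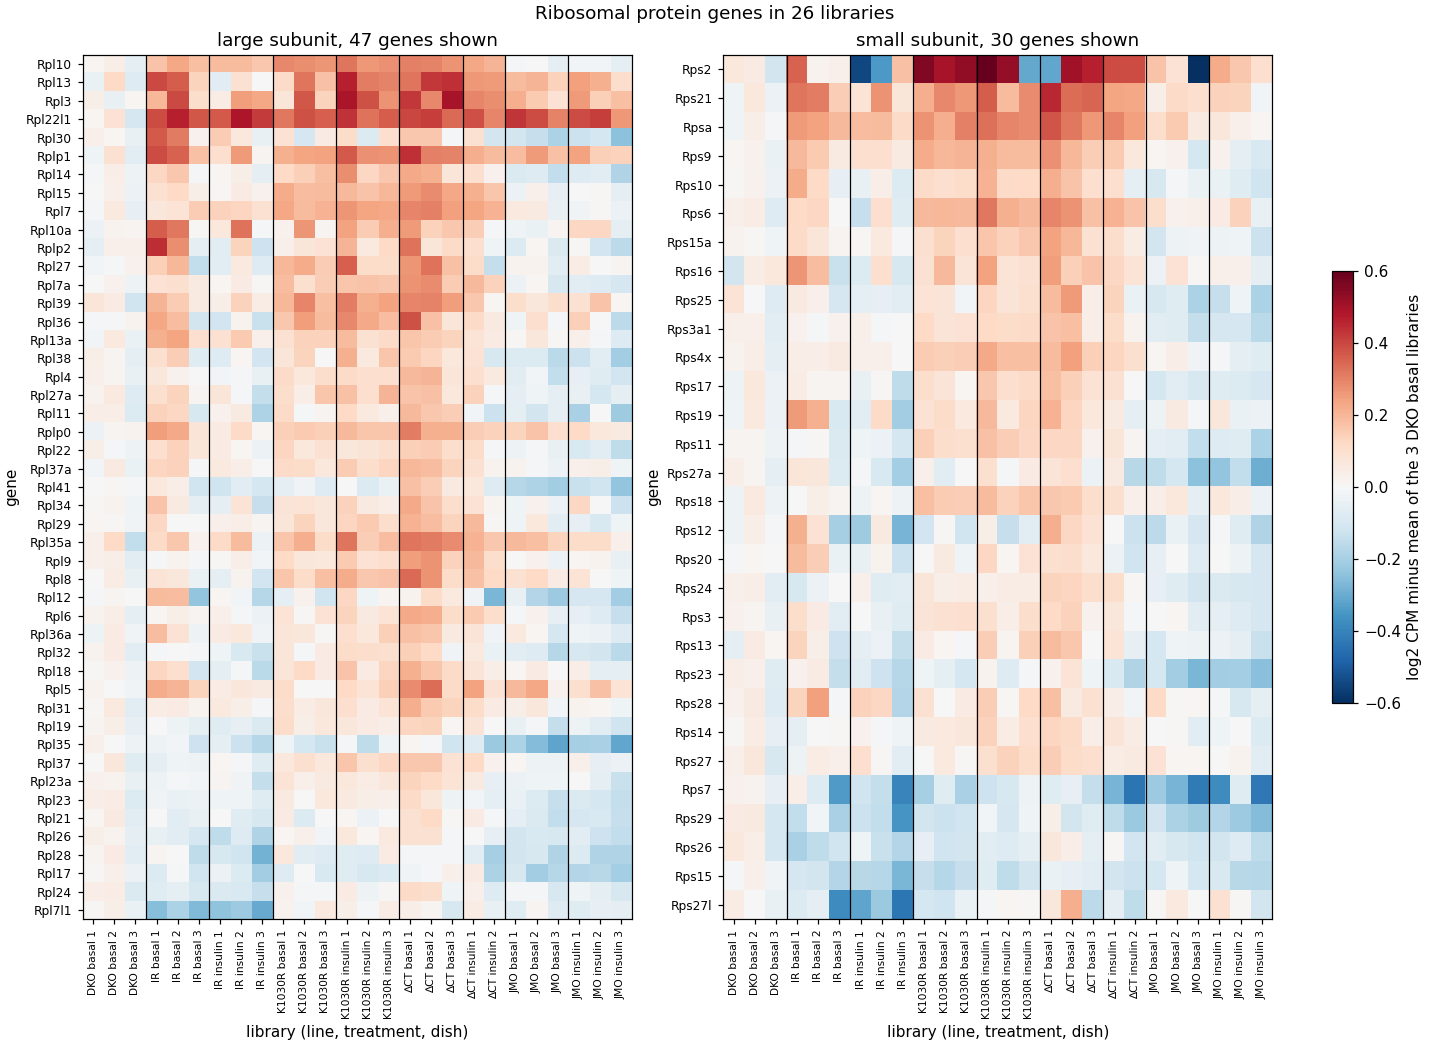
Log2 CPM of each ribosomal protein gene (rows, large subunit left, small subunit right) in each library (columns), minus its mean in the 3 DKO basal dishes, leaving out members that are not reported by name. Red is higher and blue lower, colours end at 0.6 in either direction, and rows are ordered by the difference between lines with and without the kinase domain. The K1030R and ∆CT columns are mostly red, the JMO columns pale or blue, and Rpl22l1 is red in all 4 receptor lines.

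Relative to IR, the level of the set was higher in ∆CT and lower in JMO. In ∆CT, 35 members were higher and 0 lower (all genes 11.2% and 14.8%), with a median of 0.11 (0.066 to 0.13 with 1 library left out). In K1030R, 11 were higher and 2 lower (all genes 13.9% and 16.3%), with a median of 0.036 (0.0053 without the third IR basal dish). In JMO, 1 was higher (Rpl7l1) and 28 lower (all genes 20.7% and 21.8%), with a median of -0.087. Single dishes moved these counts: ∆CT against IR gave 20 members without the first and 22 without the second ∆CT dish, JMO against IR gave 18 without the first IR or the third JMO dish, and K1030R against IR gave 8 without the second IR or the third K1030R dish. The share of all genes called in these refits is not given, so whether the members or the whole test moved is not shown. With library totals, 20 and 0 were called for K1030R (all genes 29.5% called), and 4 and 13 for JMO (42.4%). In the insulin libraries K1030R was higher than IR for 48 members and lower for 0, with a median of 0.13, beside 34% of all genes called in either direction. There ∆CT was higher than IR for 13 members and lower for 0 (median 0.077, all genes 19.7%), and JMO was higher for 2 and lower for 12 (median -0.040, all genes 40.2%).

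Few of these mRNAs passed the test for insulin at 15 min. In IR, 2 of 80 fell and 0 rose, Rpl13 and Rplp0, beside 1.87% of all genes called. Rpl13 was at 319, 312 and 266 CPM in the basal and 232, 258 and 242 CPM in the insulin dishes, a log2 fold change of -0.29 ± 0.0710 (SE, adjusted p = 0.0389 by edgeR). Rplp0, the scaffold of the ribosomal stalk, fell by 0.13 on the log2 scale (adjusted p = 0.0458 by edgeR). The basal and insulin dishes of Rpl13 do not overlap, and both calls depend on single dishes and on the setting. No member was called in IR with library totals, with the Gm42418 covariate or in a fit of only those groups (all genes 2.12%, 0.864% and 0.838%), while DESeq2 called 4 and limma voom 2 (all genes 2.62% and 1.83%). By edgeR, 0 members were called without the first or second IR basal dish or without the first or the third IR insulin dish, 5 without the second IR insulin dish, and 22 without the third IR basal dish. These counts stand without the share of all genes in the same fits and show only how far single dishes move the calls. In K1030R, ∆CT and JMO 0 members were called by edgeR, beside 0.156%, 1.01% and 0.364% of all genes. Unadjusted p-values below 0.05 were found for 25 members in IR (31.2%, all genes 14.7%), 34 in ∆CT (42.5%, all genes 9.59%), 3 in K1030R and 3 in JMO (3.75% each, all genes 6.09% and 7.01%). With the replicate number as a block, edgeR called 8 members lower for insulin in ∆CT, with a median of -0.12 (all genes 1.19% called), and 4 lower in IR (all genes 2.22%). The ∆CT insulin group has no dish numbered 3. In K1030R, ∆CT and JMO, DESeq2 called 0, 1 and 0 (all genes 0.192%, 0.909% and 0.345%), and limma voom 0, 0 and 0 (0.143%, 0.987% and 0.37%). The median log2 change over the members was -0.072 for IR cells, 0.034 for K1030R cells, -0.096 for ∆CT cells and -0.019 for JMO cells. With 1 library left out, the IR median was -0.10 to -0.043 and the K1030R median 0.012 to 0.049. The ∆CT median was then -0.13 to -0.058 and the JMO median -0.036 to 0.003. With library totals the medians were -0.042, 0.027, -0.062 and 0.023 in the same order. The sign of the JMO median thus depended on the setting. In the main fit, 78 of the 80 estimates in ∆CT were below 0, each compared over 3 against 2 dishes. Of all genes, 44.3% had an estimate above 0. The members move together, so these are not separate results. The set levels of the dishes touched, at 0.0537 in the first ∆CT insulin dish and 0.0535 in the third ∆CT basal dish. The difference of the insulin effect between K1030R and IR was called by edgeR for 0 members, with 22 below an unadjusted p of 0.05 (27.5%, all genes 7.86%) and 1 called by DESeq2, and that between JMO and IR for 0, with 3 below an unadjusted p of 0.05 (3.75%, all genes 6.49%) and 0 called by DESeq2. By adjusted p, edgeR called 0.37% and 0.279% of all genes, and DESeq2 0.403% and 0.338%.

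Rpl10, a late-joining 60S protein that sits near the peptidyl-transferase centre (chromosome X, 74270812 to 74273135, GRCm38), differed between the classes. Its level was 772.5, 789 and 739 CPM in DKO and 762.5, 767 and 737 CPM in JMO, against 862, 901 and 868 CPM in IR, 937, 930 and 921 CPM in K1030R and 946, 943 and 925 CPM in ∆CT. The classes do not overlap. After insulin it was at 857 to 874 CPM in IR, 918 to 958 CPM in K1030R and 883 and 902 CPM in ∆CT, above the 739 to 759 CPM in JMO. The log2 difference between the classes was 0.26 ± 0.0182 (SE, adjusted p = 1.34e-14 by edgeR). JMO against DKO gave -0.02 ± 0.0281 (SE, adjusted p = 0.614).

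Rpsa, a 40S protein also known as the laminin receptor precursor, was also higher in the lines with the domain, with JMO in between. It was at 1082, 1130 and 1091 CPM in DKO, 1184, 1226 and 1144 CPM in JMO, 1313, 1300 and 1261 CPM in IR, 1326, 1280 and 1358 CPM in K1030R and 1432, 1369 and 1320 CPM in ∆CT. JMO thus lay between DKO and the other lines without overlap. Its log2 fold change against DKO was 0.23 in IR, 0.26 in K1030R and 0.32 in ∆CT, and 0.11 in JMO (adjusted p = 0.0096 for JMO by edgeR, lost with the Gm42418 covariate and without the second JMO dish). Rps21, a 40S protein, was at 129, 137 and 128 CPM in DKO and 135, 142 and 141 CPM in JMO. The dishes of IR (164, 162 and 146 CPM), K1030R (153, 161 and 158 CPM) and ∆CT (180, 166 and 167 CPM) were all higher, with a class difference of 0.26 ± 0.0356 (SE, adjusted p = 1.07e-06 by edgeR).

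The stalk proteins recruit the GTPase factors of translation. Rplp0 rose in all 4 receptor lines, by 0.19 (IR), 0.15 (K1030R), 0.24 (∆CT) and 0.13 (JMO) on the log2 scale, as did Rplp1, by 0.31, 0.23, 0.35 and 0.20. Rplp1 was at 342, 371 and 332 CPM in DKO and between 393 and 471 CPM in the 12 basal dishes of receptor lines, with no overlap. For Rplp2, IR dishes spread over 214, 191 and 152 CPM against 151, 161 and 160 CPM in DKO, and 0 of the 4 lines passed. Rplp0, Rplp1, Rpsa and Rpl22l1 were among the 5 members (6.25%) higher in all 4 lines, a pattern of 8.04% of all genes. Another 11 members (13.8%, all genes 6.64%) were higher in IR, K1030R and ∆CT and not in JMO, and 22 (27.5%, all genes 1.82%) were higher in ∆CT and called in no other line, among them Rpl11 and Rps3.

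Rpl5 and Rpl11 form, with 5S RNA, the particle that binds Mdm2 when ribosome assembly fails. Rpl5 rose by 0.19 in IR and 0.25 in ∆CT, but by 0.10 in ∆CT when summed with its sequence copies (described with the copies), where the IR value was 0.012 (adjusted p = 0.819 by edgeR) and did not pass, while Rpl11 rose in ∆CT (0.17 ± 0.0675, SE, adjusted p = 0.0472 by edgeR) and, summed with its copies, also in K1030R (0.11, adjusted p = 0.0257). Rpl3, which shapes the peptidyl-transferase centre, was at 132, 125 and 130 CPM in DKO and 173, 158 and 182 CPM in ∆CT, without overlap, a log2 fold change of 0.41 ± 0.0843 (SE, adjusted p = 0.000578 by edgeR), and 0.18 when summed with its copies, which hold most of its counts. Rps6, the 40S substrate of S6 kinase, rose in K1030R (0.19) and ∆CT (0.25), and was 0.08 in IR and 0.05 in JMO, which did not pass. Rps3, at the mRNA entry channel, rose in ∆CT only by a narrow margin (0.10 ± 0.0373, SE, adjusted p = 0.0346 by edgeR). Rps19, the gene most often mutated in Diamond-Blackfan anaemia, passed in 0 of the 4 lines, with log2 fold changes of 0.13 in IR, 0.08 in K1030R and 0.14 in ∆CT, and 0.0046 in JMO. Rpl41, the shortest ribosomal protein, rose in ∆CT (0.13) and fell in JMO (-0.19). Rps27a, made as a fusion with ubiquitin, fell in JMO (-0.17 ± 0.0606, SE, adjusted p = 0.038 by edgeR), with log2 fold changes of 0.02, -0.01 and 0.05 in the other lines. Summed with its copies it was at -0.080 in JMO (adjusted p = 0.132 by edgeR), which did not pass. The same sum was at 0.17 in ∆CT (adjusted p = 0.000595 by edgeR), which passed, and at 0.021 in IR and 0.084 in K1030R, which did not. Rps6 in ∆CT was at 0.15 when summed with its copies.

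**Figure D4:**
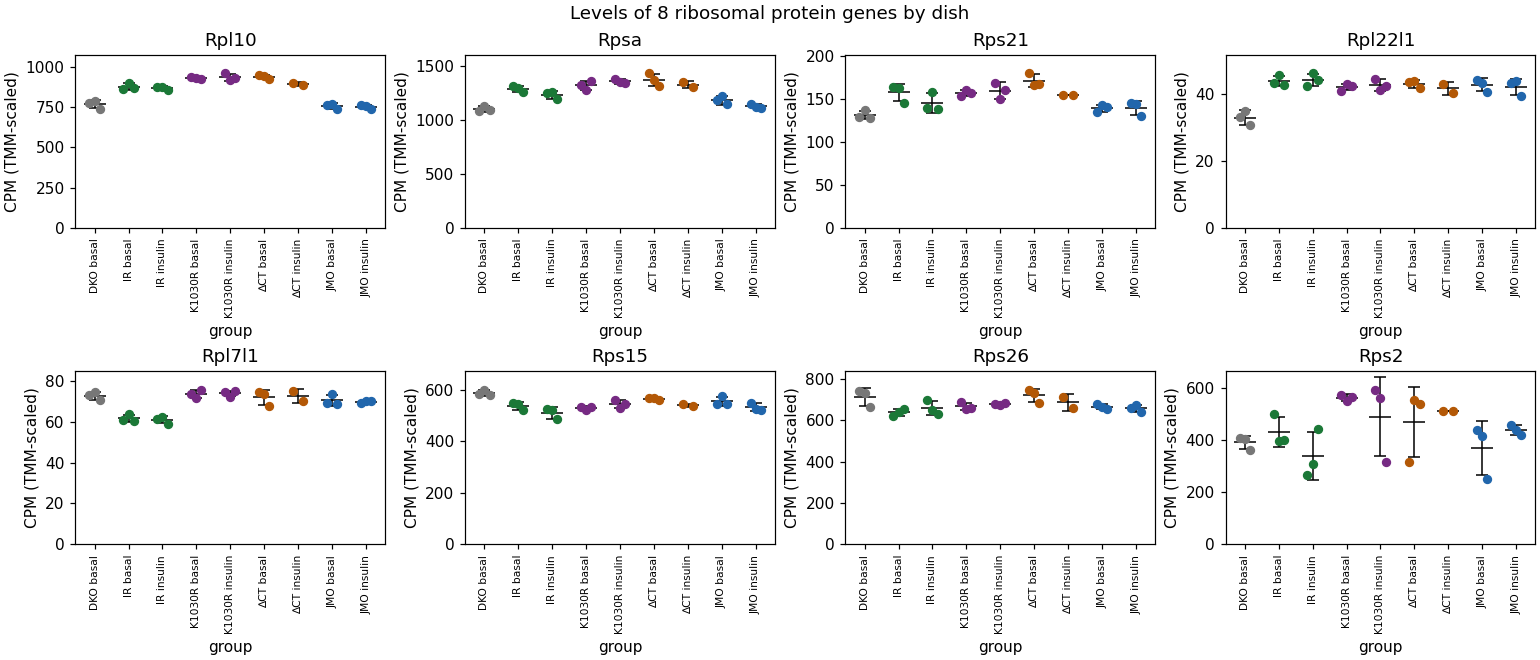
TMM-scaled CPM (y axis, from 0) of 8 ribosomal protein genes in each dish (points) by group (x axis), with the mean and SD of the dishes. Rpl10, Rpsa and Rps21 are higher in IR, K1030R and ∆CT, Rpl22l1 is lowest in DKO, Rpl7l1 is lowest in IR, and Rps2 scatters between dishes of a group.

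Among the paralogs, Rpl22l1, a paralog of the RNA-binding protein Rpl22, was at 33.2, 34.9 and 30.6 CPM in DKO and between 40.4 and 45.5 CPM in all 12 basal dishes with a receptor, JMO included. Its log2 fold changes were 0.42 ± 0.0528 (IR), 0.36 ± 0.0536 (K1030R), 0.39 ± 0.0530 (∆CT) and 0.38 ± 0.0527 (JMO; SE, adjusted p = 3.84e-08, 1.08e-06, 1.58e-07 and 5.36e-07 by edgeR), the largest among members called in IR, K1030R and JMO. Of the alternatives run, only the 1.5-fold test ended these 4 calls. Between JMO and IR it differed by -0.04 ± 0.0508 (SE, adjusted p = 0.624 by edgeR), which did not pass. Rpl22 itself rose in IR, K1030R and ∆CT, by 0.10, 0.09 and 0.14, and was at -0.03 in JMO, which did not pass. Rpl7l1, a paralog of Rpl7 with a part in 60S assembly, was lower in IR, at 60.9, 63.7 and 60.5 CPM against 72.9, 74.3 and 70.7 CPM in DKO. The other 9 basal dishes spanned 67.8 to 75.6 CPM and the IR insulin dishes 59.0 to 62.5 CPM. It differed from DKO by -0.24 ± 0.0405 (SE, adjusted p = 8.48e-06 by edgeR), and K1030R, ∆CT and JMO exceeded IR by 0.26, 0.23 and 0.19. Rps27l, a paralog of Rps27 and a known p53 target, passed in 0 of the 4 lines, with -0.16 ± 0.0785 in IR (SE, adjusted p = 0.0907 by edgeR). Of the other pairs, Rpl39l, Rpl3l, Rpl10l and Rps4l were left out by the filter. Rpl39 rose in IR, K1030R and ∆CT (0.14, 0.22 and 0.28) and Rps4x in K1030R and ∆CT (0.15 and 0.19).

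A few members went the other way. Rps15, a 40S protein of the decoding side, was at 583, 601 and 580 CPM in DKO, 548, 545 and 520 CPM in IR and 534, 523 and 534 CPM in K1030R, a log2 fold change of -0.13 ± 0.0323 in IR and -0.15 ± 0.0323 in K1030R (SE, adjusted p = 0.00119 and 0.000296 by edgeR). It is the 1 member called lower between lines with and without the kinase domain (-0.07). The ∆CT dishes (571, 569 and 561 CPM) overlapped those of JMO (545, 577 and 546 CPM). Against DKO alone the lines with the domain gave -0.11 (adjusted p = 0.000636 by edgeR). Against JMO alone they gave -0.029 (adjusted p = 0.398 by edgeR), which did not pass. Rps26, a 40S protein at the mRNA exit channel, was lower in IR (622, 641 and 655 CPM) than in DKO (744, 733 and 663 CPM), without overlap and with an adjusted p of 0.00144 by edgeR. In JMO the lowest estimates were those of Rps7 (-0.30), Rpl35 (-0.25), Rps23 (-0.19), Rpl41 (-0.19) and Rps29 (-0.17). Summed with copies, Rps7 was at -0.18, and Rps23 at -0.086 (adjusted p = 0.0891 by edgeR), which did not pass. Rpl35 was at 179, 170 and 164 CPM in JMO and 208, 204 and 199 CPM in DKO, and the IR, K1030R and ∆CT dishes (186 to 206 CPM) lay between or beside them.

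Scaled to the ribosomal protein genes themselves, an alternative chosen after seeing the data, the shared shift is removed and 23 members differed from the rest of the set between the classes by edgeR, a smaller share of the 80 than the 54.4% of all genes called. The 13 higher ones are all among the 62 above, led by Rpl10 (0.15), Rps21 (0.15) and Rpsa (0.11), while of the 10 lower ones only Rps15 (-0.18) was called lower without this scaling, and the other 9 include Rps27l (-0.19), Rpl7l1 (-0.16), Rps26 (-0.14) and Rps29 (-0.12). For ∆CT against DKO the same scaling called 15 higher, all among the 52, and 13 lower, which had not been called lower, beside 48.5% of all genes called. The scaling moves every member down by about the same amount. Both overlaps of the higher members, and the new lower calls, therefore largely follow from the scaling and are no separate evidence.

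Many ribosomal protein genes have processed copies in the genome, and reads that match several loci are divided among them by the estimated counts. A search for shared 31-base words found 932 copies of the members, which held 0.446% to 0.530% of library counts. For 17 members over 25% of the combined counts were on copies, and for 7 over 50%. Rpl5 had 128 CPM of its own and 638 on copies, Rpl3 151 and 649. Of the other members, 49 had under 1% of counts on copies. Of these 49, 39 were higher in lines with the kinase domain and 1 lower, with a median of 0.11. When each member was summed with its copies, 65 of 80 were higher and 1 lower, beside 52.6% of all genes called in either direction. Rpl5 then changed sign in JMO, from 0.15 ± 0.0505 (SE, adjusted p = 0.0186 by edgeR) to -0.14 (adjusted p = 0.00189), so its direction there is uncertain. Rpl3 in ∆CT went from 0.41 to 0.18 and Rpl13 from 0.39 to 0.22 (adjusted p = 0.0901). Rps2 was the most variable member, with a biological coefficient of variation of 21.1%. The same gene-wise estimate had a median of 4.07% over the members. The Rps2 dishes lay at 315, 554 and 539 CPM in ∆CT and 440, 416 and 252 CPM in JMO, with 56.5% of its combined counts on copies. It passed in no line on its own counts, whereas summed with its copies it was higher in K1030R (0.45, adjusted p = 0.0139 by edgeR) and between the classes (0.32, adjusted p = 0.00618).

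The start sites are shown because the pyrimidine tract there defines TOP mRNAs. RefSeq promoters (GRCm38.p6, from 250 bases before to 50 after the annotated start) were found for 60 of the 80. A start at C followed by 4 pyrimidines was present in 13 of the 60 (21.7%) and in 2.97% of 26965 other genes, and within 5 bases of the annotated start in 48.3% and 21.1%. The letters CGGAAG, the core bound by ETS-family factors, were on either strand in 41 of 60 (68.3%, other genes 18.7%), TCTCGCG in 14 (23.3%, 2.87%) and AAGATGGC, part of the YY1 motif, in 6 (10%, 3.17%). Members with a TOP start had a median class difference of 0.15 and those without 0.11, over 13 and 47 genes, as a description. The windows below run from 15 bases before the annotated start through the 15 bases that begin with it, 5′ to 3′, for members described above, and capitals mark runs of 5 or more C or T. The RefSeq start lies from 4 bases (Rpl10) to 493 bases (Rpl35) away from the gene start in GENCODE, which is that of the outermost transcript, for the genes shown, so a missing tract says only that these letters are not in this window.
Rps6, chr4:86857353-86857382, minus strand: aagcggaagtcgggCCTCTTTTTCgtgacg
Rplp2, chr7:141447636-141447665, plus strand: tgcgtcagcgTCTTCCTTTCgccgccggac
Rpl15, chr14:18270972-18271001, minus strand: gtgggagaaagCCTTCTTCCTTTCCTCTgg
Rpl35, chr2:39005117-39005146, minus strand: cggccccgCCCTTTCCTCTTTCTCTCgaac
Rpl7a, chr2:26910792-26910821, plus strand: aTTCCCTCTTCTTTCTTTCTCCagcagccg
Rpl22l1, chr3:28805493-28805522, plus strand: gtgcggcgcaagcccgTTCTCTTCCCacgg
Rps26, chr10:128626492-128626521, minus strand: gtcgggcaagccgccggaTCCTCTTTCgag
Rpsa, chr9:120127751-120127780, plus strand: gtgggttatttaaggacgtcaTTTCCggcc
Rpl10, chrX:74270801-74270830, plus strand: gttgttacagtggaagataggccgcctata
Rpl7l1, chr17:46782642-46782671, minus strand: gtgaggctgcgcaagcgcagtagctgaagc
Rps15, chr10:80292416-80292445, plus strand: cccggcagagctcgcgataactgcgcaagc
Rps6, Rplp2, Rpl15, Rpl35 and Rpl7a have a tract that spans the annotated start, and Rpl22l1 and Rps26, of which the first rose and the second fell in IR, have one just downstream. Rpl10 and Rpl7l1, which moved in opposite directions in IR, have none in the window.

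Genes that act with the ribosome divided into those that followed its proteins and those that did not. Of 23 TOP mRNAs outside the symbol rule, 15 were higher and 1 lower in lines with the kinase domain (median 0.080; all genes 26.7% and 25.6%), and with library totals 10 and 2 (median 0.046). They included the elongation factor subunits Eef1g (0.32) and Eef1a1 (0.17), the initiation factors Eif3e (0.34) and Eif4b (0.25), and the fusion gene Fau (0.15), whose product is processed into a ribosomal protein, with Rack1 (0.15), a protein of the 40S head. Pabpc1 was the 1 lower (-0.09). Ribosome biogenesis factors, which process rRNA and assemble subunits in the nucleolus, went the other way: 47 of 60 were lower and 4 higher, with a median of -0.16. Heatr1 (-0.45), Rrp12 (-0.38), Nop56 (-0.26) and Fbl (-0.14) were lower, while Npm1 (0.17), Gnl3l (0.28), Nop10 (0.15) and Imp3 (0.21) were higher. Against DKO, 54 of the 60 were lower and 1 higher in IR (median -0.30, all genes 24.1% lower and 25.6% higher). In ∆CT, 37 were lower and 3 higher (-0.16, all genes 22.9% and 23.4%). In K1030R, 23 were lower and 4 higher (-0.11, all genes 20.4% and 21.2%), and in JMO 19 and 4 (-0.067, all genes 17.4% and 16.8%). Between the classes, 46 to 51 were lower under library totals, RLE scaling, factors without the members and without the third IR basal dish.

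**Figure D5:**
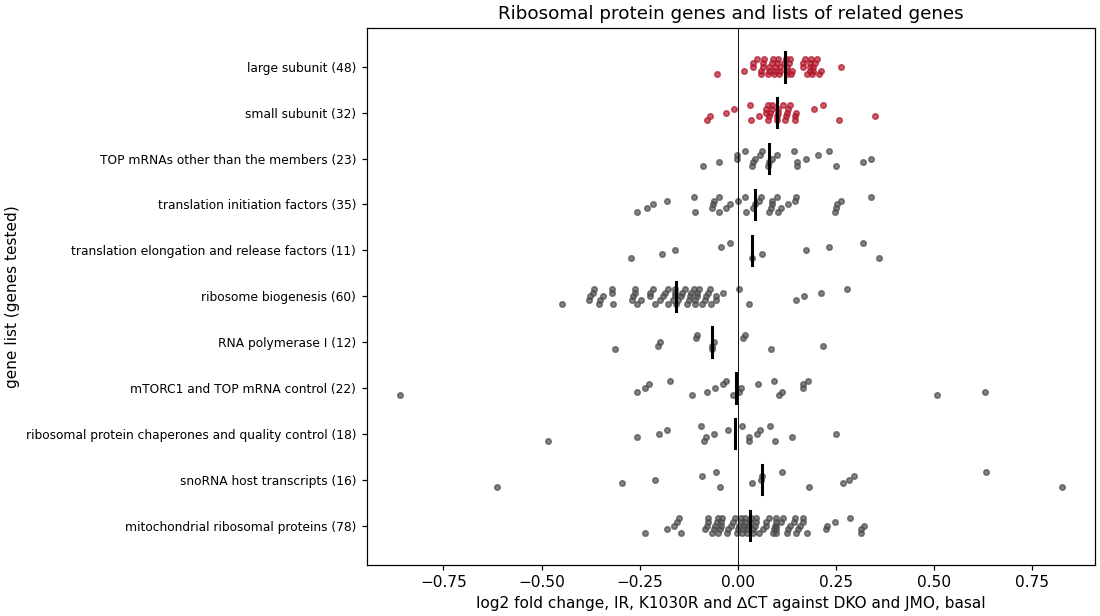
Log2 differences between basal IR, K1030R and ∆CT and basal DKO and JMO (x axis) for each gene (points) of both subunits (red) and of lists of related genes (grey, y axis, with the number tested). Black bars are medians. Both subunits lie right of 0 (0.12 and 0.10) and ribosome biogenesis factors left of it (-0.16).

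Myc, a transcription factor known to drive both groups of genes, was lower by 0.86 on the log2 scale in those lines, with -1.24 in IR, -0.67 in K1030R and -0.88 in ∆CT, and -0.14 in JMO against DKO, and the JMO value did not pass. For the lists that follow, 26.7% of all genes were higher and 25.6% lower between the classes in the main fit. For RNA polymerase I, 2 of 12 were higher and 5 lower. Of 78 mitochondrial ribosomal proteins 22 were higher and 7 lower (median 0.032; 13 and 14 with library totals, median -0.0012), of 35 initiation factors 15 and 7 (9 and 12 with library totals), of 11 elongation and release factors 5 and 3, of 22 genes of mTORC1 and TOP mRNA control 5 and 8, of 18 ribosomal protein chaperones and quality control factors 6 and 6 (2 and 8 with library totals), and of 16 snoRNA host transcripts 5 and 3.

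The filter left out 9 matching genes. Just outside it were Rpl6l, above 0.5 CPM in 3 libraries with a highest value of 0.707 CPM, and Rps3a2, above it in 1 library with 0.573 CPM. Just inside were Rpl22l1 and Rps27l, with means of 41.6 and 45.6 CPM, so there were no members close to the limit. Rpl36al, which the symbol rule does not take, was lower in IR (84.6, 86.7 and 86.8 CPM) and JMO (96.2, 84.1 and 86.4 CPM) than in DKO (110, 109 and 102 CPM), by 0.31 and 0.26 on the log2 scale.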

How the data were processed

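PolyA RNA of 26 dishes was sequenced by the authors with stranded 100-base single reads. The reads were trimmed with fastp and quantified with kallisto on the Ensembl 98 mouse transcriptome (GRCm38) and summed to genes with tximport; the deposited values are expected counts, which share multi-mapped reads among loci. Here they were rounded, filtered (CPM above 0.5 in at least 4 libraries), scaled by TMM and fitted with edgeR 4.0.16 (R 4.3.3), using robust quasi-likelihood with 1 mean per group over all 26 libraries. The SE is the log2 coefficient divided by the square root of F. Adjusted p below 0.05 was a call, with no minimum fold, and a 1.5-fold glmTreat test was a second rule. CPM in the text are TMM-scaled, except for the filter, markers, Gm42418 and copies. The fit was tested on simulated data. DESeq2 1.42.0 and limma 3.58.1 served as alternatives.

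Genes were named by rule: the 5 largest and 5 smallest changes among members called in each line against DKO, the 3 largest for insulin, fixed lists by role, paralogs, members next to the filter, and ribosomal genes the symbol rule misses; some members of the role paragraphs were chosen after their values were seen. Members and gene lists were chosen with earlier results of these data known. No pair of dishes of a group agreed within sampling noise (lowest chi-square per degree of freedom 2.92 over 25 pairs). Libraries with the same dish number did not deviate together over all genes (median correlation 0.00054 over 100 pairs), so the fit has no block for it. This check was not made on the ribosomal protein genes alone, for which the dishes numbered 3 were the lowest in 7 of 8 groups. Intervals and SEs cover dish and counting error only. Some genes are not reported by name here, though they stay in the fits and counts.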

Additional observations from a re-analysis of the deposited data

Results flagged for a closer look

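Counts on sequence copies of the members, which enter the comparisons above only where members were summed with their copies, were above the 3 DKO basal dishes (0.469% to 0.476% of library counts) in every K1030R basal dish (mean 0.516%) and every ∆CT basal dish (mean 0.506%, lowest dish 0.479%). The copies share reads with the members, and whether these counts come from the copies or from the members was not tested.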

How the results depend on the processing

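Members called were counted again under each alternative. The number after "of" in brackets is the count in the main analysis, and need not hold the members counted before it. The 1.5-fold test gave 0 in all 14 comparisons. Scaling to the members, chosen after seeing the data like the sums with sequence copies, the Gm42418 covariate and the other references below, gave 28 (of 52) for ∆CT against DKO, 8 (of 13), 6 (of 35) and 15 (of 29) for K1030R, ∆CT and JMO against IR, 23 (of 63) between lines with and without the kinase domain, 36 (of 64) for any difference, 1 (of 2) for insulin in IR and 1 (of 0) for insulin in K1030R minus IR. Without a filter, JMO against DKO gave 28 (of 18), insulin 14, 3, 8 and 1 in IR, K1030R, ∆CT and JMO (all genes 2.27%, 0.566%, 1.27% and 0.788%), and its differences from IR 13 in K1030R and 4 in JMO (0.931% and 0.788%). For JMO against DKO, the fit to only those groups gave 32 and the Gm42418 covariate 11. Library totals gave 20 for K1030R and 17 for JMO against IR. Insulin in IR gave 0 with library totals, the Gm42418 covariate or only those groups, 1 with RLE scaling, the 10-count filter or the copies, and 4 with DESeq2; insulin in ∆CT gave 1 with only those groups or DESeq2, and K1030R minus IR gave 1 with DESeq2. With insulin libraries in place of basal ones, K1030R, ∆CT and JMO against IR gave 48, 13 and 14, and the 3 lines with the kinase domain against JMO 41. A block for the replicate number gave 28 for JMO against DKO, 4 for insulin in IR, 8 for insulin in ∆CT and 1 for K1030R minus IR, and moved no other count by over 1.5 times. The check given with the processing found no pairing by these numbers over all genes. It cannot exclude a shift of this set by dish number, as the dishes numbered 3 had the lowest set level in 7 of 8 groups.

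Leaving out 1 library at a time gave 17 to 35 members for IR, 20 to 31 for K1030R, 38 to 57 for ∆CT and 11 to 21 for JMO against DKO, 8 to 17 for K1030R, 20 to 43 for ∆CT and 18 to 42 for JMO against IR, 50 to 69 between the classes and 56 to 75 for any difference. It gave 0 to 22 for insulin in IR, 0 to 1 in ∆CT, 0 to 0 in K1030R and JMO, 0 to 6 for K1030R minus IR and 0 to 1 for JMO minus IR. The share of all genes called with 1 library left out is not given. The members' mean share of counts, 2.85%, was 3.09% with loci named as pseudogenes, 3.34% with sequence copies and 2.38% without the 5 members with most counts. Of 84 results for named members, 42 passed under every alternative but the 1.5-fold test. Rpl5 reversed in JMO with its copies (-0.14) and, between classes, in the insulin libraries against JMO (-0.0081). The cause of these changes was not tested. At these depths and dish numbers, a member that did not pass is not shown to be unchanged.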
